A study of Mus musculus with 64 samples.

Results

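The 10 genes described here encode secreted products of fat cells and regulators of the fat cell state. They were taken by symbol from the gene-level RNA tables of gonadal fat and liver, out of 48440 gene identifiers in each table. All 10 had a mean value of at least 10 in gonadal fat and were tested there among 17394 genes. In liver 5 of the 10 (Nampt, Nrg4, Pparg, Cebpa and Fabp4) reached that mean and were tested among 15180 genes.

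Fat cells act as an endocrine organ. Leptin reports the size of the fat stores to the brain, adiponectin raises insulin sensitivity in liver and muscle, and resistin opposes insulin action in mice. Pparg and Cebpa are the transcription factors that drive and maintain the fat cell state, inducing one another and many genes of lipid storage, among them Fabp4 and Adipoq. Leptin output follows fat cell size and insulin as well as this programme.

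All animals were 129S6/SvEvTac mice given drinking water with 400 ppb inorganic arsenic over 4 weeks. No group was free of arsenic. The study compared wild-type (WT) mice with mice, called humanized here, that express the human ortholog of As3mt, the methyltransferase of arsenic metabolism, in both sexes. Ages are not given in the sources used here. Gonadal fat gave 11 libraries, 2 of them from WT males and 3 from each of the other groups, and liver gave 12, with 3 in each group. The labels do not say which fat and liver libraries share an animal, and p-values below measure the spread between these samples. The labels give the fat libraries as total RNA and describe their preparation only by citing a published protocol, from a study known for chromatin run-on sequencing. Whether the fat values measure accumulated RNA or RNA in the course of being made is not given in the sources used here, so a fat value below is a level of RNA reads only. Liver libraries were prepared by ribosomal RNA depletion in 6 cases and by polyA selection in 6, with both kinds in each group. The kinds were not balanced: polyA selection prevailed in both WT groups and ribosomal depletion in both humanized groups. Liver values per library, counts of overlap and correlations over all 12 libraries are not adjusted for this.

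The genotype and sex labels held in every library. Mouse As3mt stood at 1218 to 1737 in WT fat and at 0 to 5.33 in humanized fat, and its neighbour Borcs7 at 994 to 1507 against 13.6 to 20.5. Xist, the RNA of the inactive X chromosome, was at 56944 or more in each female fat library and at 22.3 or less in each male one. Ddx3y, a gene of the Y chromosome, was at 220 in WT female replicate 5 against at most 2.18 in the other females and at least 7397 in males. Of 14 markers of fat cells 13 were in the table, all 13 passed the filter in fat, and their summed value was 2243950 to 4816090. The markers of testis and epididymis summed to at most 33.1 in any fat library. Those of ovary and female tract summed to 276 to 1187 in female fat and 359 to 1418 in male fat. Those of pancreas acinar cells summed to 482 to 3999 over the fat libraries.

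A few fat libraries stood apart. Humanized male replicate 4 had the lowest summed fat cell markers (2243950, against 3255270 or more elsewhere) and the highest summed macrophage markers over 10 genes (327486, against 53039 to 161866). WT male replicate 5 had the highest summed erythroid markers over 6 genes (2159970, against at most 419922) and hepatocyte markers over 10 genes (243789, against at most 19889). WT female replicate 4 had the highest summed markers of brown and beige fat over 7 genes (30459, against 1232 to 5036). The part of these differences in the results below was not tested, and only some of the results are given with and without these libraries. In bulk tissue, fewer cells of a type and less RNA per cell cannot be told apart.

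Promoter windows, 250 bases before to 50 bases after a gene's start, were found in RefSeq's annotation of GRCm38.p6 for 9 of the 10 genes. The 5 windows below belong to the pairs of genes that moved together or apart across the fat libraries. Lep and Cfd moved in opposite directions, Retn moved with Cfd, and Pparg moved with Cebpa. Capitals mark matches on either strand to 3 motifs. These were the C/EBP core TTNNGCAA, the nuclear receptor half-site AGGTCA and the TATA box TATAAA. All 5 windows are on the plus strand, in the order chr6:29059971-29060270 for Lep, chr8:3655520-3655819 for Retn, chr10:79890603-79890902 for Cfd, chr6:115421816-115422115 for the last of 3 windows of Pparg, and chr7:35119043-35119342 for Cebpa.
Lep: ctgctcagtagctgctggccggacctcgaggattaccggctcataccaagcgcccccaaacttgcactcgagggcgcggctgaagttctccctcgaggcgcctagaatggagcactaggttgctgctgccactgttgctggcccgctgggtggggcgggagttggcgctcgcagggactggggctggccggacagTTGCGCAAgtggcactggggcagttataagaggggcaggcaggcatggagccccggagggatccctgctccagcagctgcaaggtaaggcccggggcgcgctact
Retn: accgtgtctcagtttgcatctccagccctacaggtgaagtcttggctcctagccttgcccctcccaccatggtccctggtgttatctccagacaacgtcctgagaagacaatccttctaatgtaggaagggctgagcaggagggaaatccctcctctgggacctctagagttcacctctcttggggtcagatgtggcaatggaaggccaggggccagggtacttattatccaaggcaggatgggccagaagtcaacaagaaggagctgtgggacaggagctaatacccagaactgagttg
Cfd: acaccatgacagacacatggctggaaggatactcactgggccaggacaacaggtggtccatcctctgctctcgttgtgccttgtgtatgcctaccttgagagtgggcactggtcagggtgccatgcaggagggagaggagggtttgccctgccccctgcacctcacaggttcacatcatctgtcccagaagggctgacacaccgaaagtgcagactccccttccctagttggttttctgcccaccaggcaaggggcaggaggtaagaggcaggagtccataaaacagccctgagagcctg
Pparg: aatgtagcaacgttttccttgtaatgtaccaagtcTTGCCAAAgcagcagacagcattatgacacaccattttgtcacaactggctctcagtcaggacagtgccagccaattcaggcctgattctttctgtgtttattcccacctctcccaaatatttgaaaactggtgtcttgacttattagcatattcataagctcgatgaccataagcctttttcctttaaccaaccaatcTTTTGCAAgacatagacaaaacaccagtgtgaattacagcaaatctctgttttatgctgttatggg
Cebpa: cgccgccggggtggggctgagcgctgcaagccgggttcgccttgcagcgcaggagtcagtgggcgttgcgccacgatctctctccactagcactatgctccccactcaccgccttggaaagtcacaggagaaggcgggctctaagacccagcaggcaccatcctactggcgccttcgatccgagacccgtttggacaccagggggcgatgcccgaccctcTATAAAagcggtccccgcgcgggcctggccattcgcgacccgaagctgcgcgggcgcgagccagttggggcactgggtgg

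The Lep window held 1 palindromic C/EBP core starting 55 bases before the gene's start, which reads as a match on both strands. The last Pparg window held 2 such cores, starting at -215 and -16, and the Cebpa window held a TATA box starting at -30. The Retn and Cfd windows held none of these 3 motifs. Over all 32851 windows, 10.8% held the C/EBP core, 16.3% the half-site and 13.6% the TATA box. Of the windows not shown, Nrg4 held the C/EBP core at 40 and half-sites at -90 and -26, Nampt a half-site at -151, and the other windows of Pparg a half-site at -28 and at -9, the latter together with a TATA box at -29. The windows of Adipoq and Apln held none of the 3. A match describes the letters only.

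No member passed the test for a difference between genotypes in fat. On limma's test with Benjamini-Hochberg adjustment over all genes, 0 of 10 members had an adjusted p below 0.05 in males, where 0.0172% of all genes did. The same held for 0 of 10 in females (0.0172% of all genes), with both sexes together (0.023%), for genotype by sex (0%), and between males and females (0.42%). Values per library and group therefore carry the description that follows, on the scale of the deposited normalized read counts. These values are not divided by gene length, so levels are compared within a gene only.

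**Figure D1:**
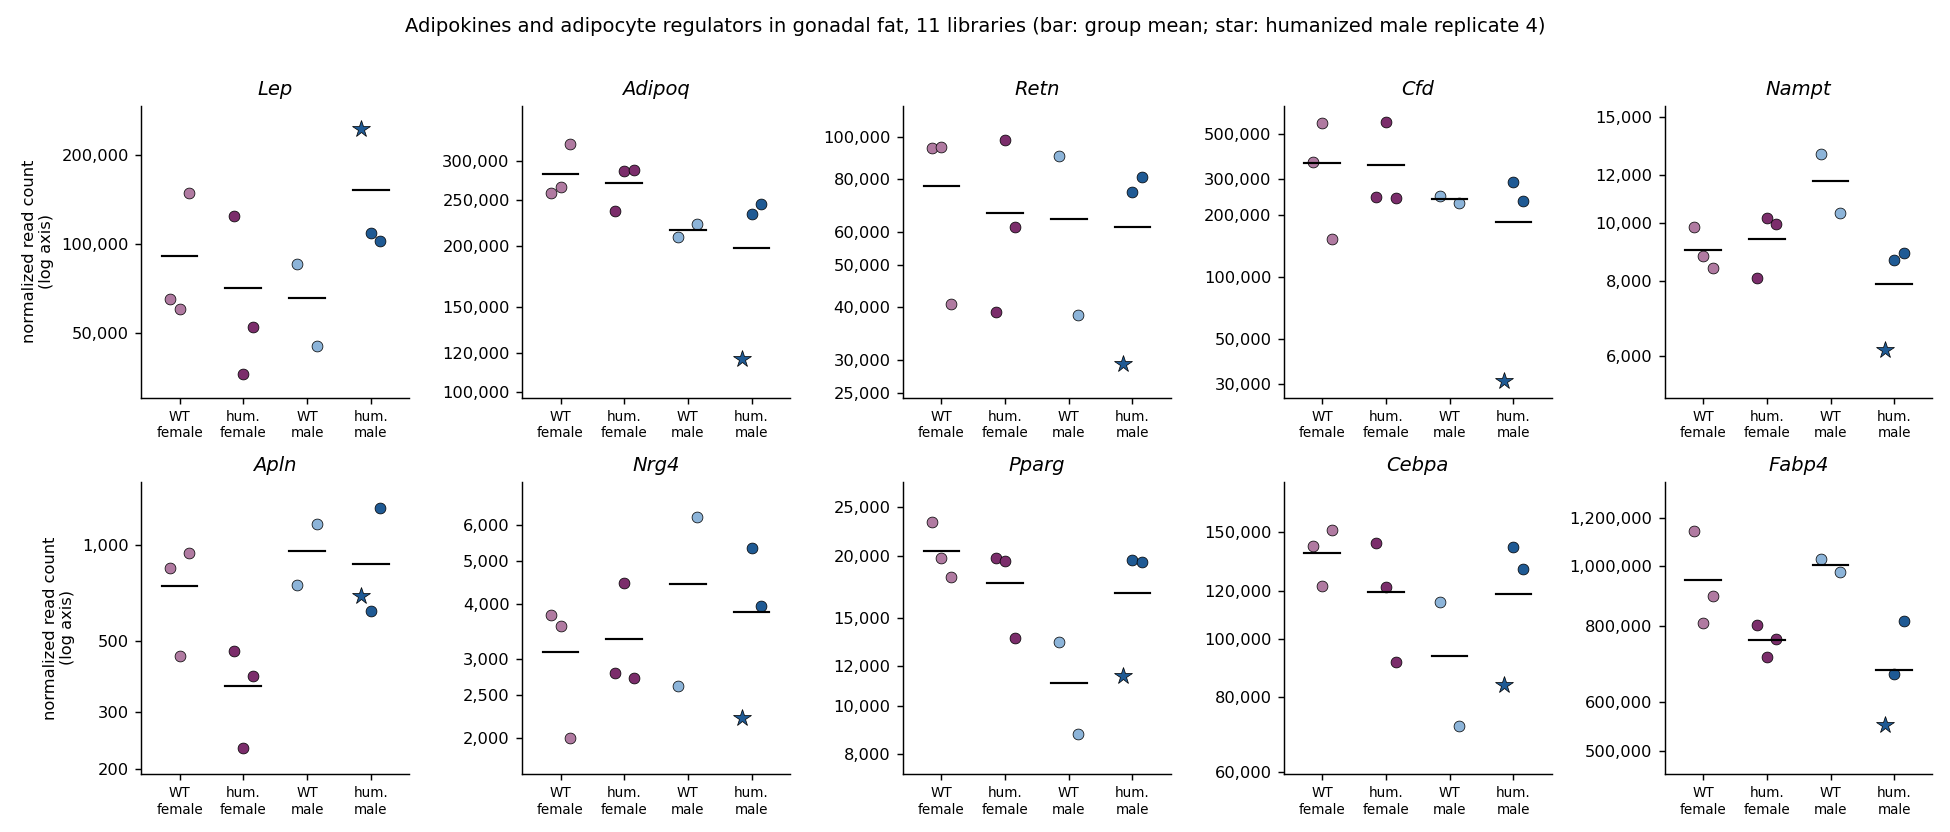
Normalized read counts on log axes for the 10 genes in 11 gonadal fat libraries, 1 point per library, bars at group means, with a star for humanized male replicate 4. That library has the highest Lep value (243452) and the lowest Adipoq, Retn, Cfd, Nampt and Fabp4 values.

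Lep (ENSMUSG00000059201), the leptin gene, was read at 85497 and 45002 in WT males and at 243452, 108779 and 102369 in humanized males. The 3 humanized males were all above both WT males. Mean values were 65249 ± 28635 (SD, n = 2) and 151533 ± 79669 (SD, n = 3), a fitted 2.25-fold difference with a 95% confidence interval of 0.872 to 5.80 (limma, adjusted p = 0.656). The log2 difference of 1.17 became 0.77 without humanized male replicate 4, 0.71 without WT male replicate 5 and 1.63 without WT male replicate 4. In females the order was not repeated: Lep was at 64933, 60000 and 147807 in WT and at 124027, 36154 and 52336 in humanized animals, and the groups overlapped. The genotype difference in males minus that in females was 1.60 on the log2 scale (SE 0.82, adjusted p = 0.757).

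Adipoq (ENSMUSG00000022878), the adiponectin gene, varied less. Its values were 257349, 265412 and 325520 in WT females and 236839, 286669 and 287631 in humanized females. In WT males Adipoq was at 209550 and 222440, and in humanized males at 116720, 233692 and 244916. Apart from humanized male replicate 6, at 244916, every male library lay below every female one. Males minus females gave -0.45 on the log2 scale (SE 0.21, adjusted p = 0.431), and -0.28 without humanized male replicate 4.

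The Lep value as a percentage of the Adipoq value, a ratio within each library that any scaling of the library leaves in place, was 209% in humanized male replicate 4 and 12.6 to 52.4% in the other 10. The other humanized males were at 46.5% and 41.8%, and the WT males at 40.8% and 20.2%. Reads per gene were not divided by length, so the percentage ranks libraries and not the hormones.

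**Figure D2:**
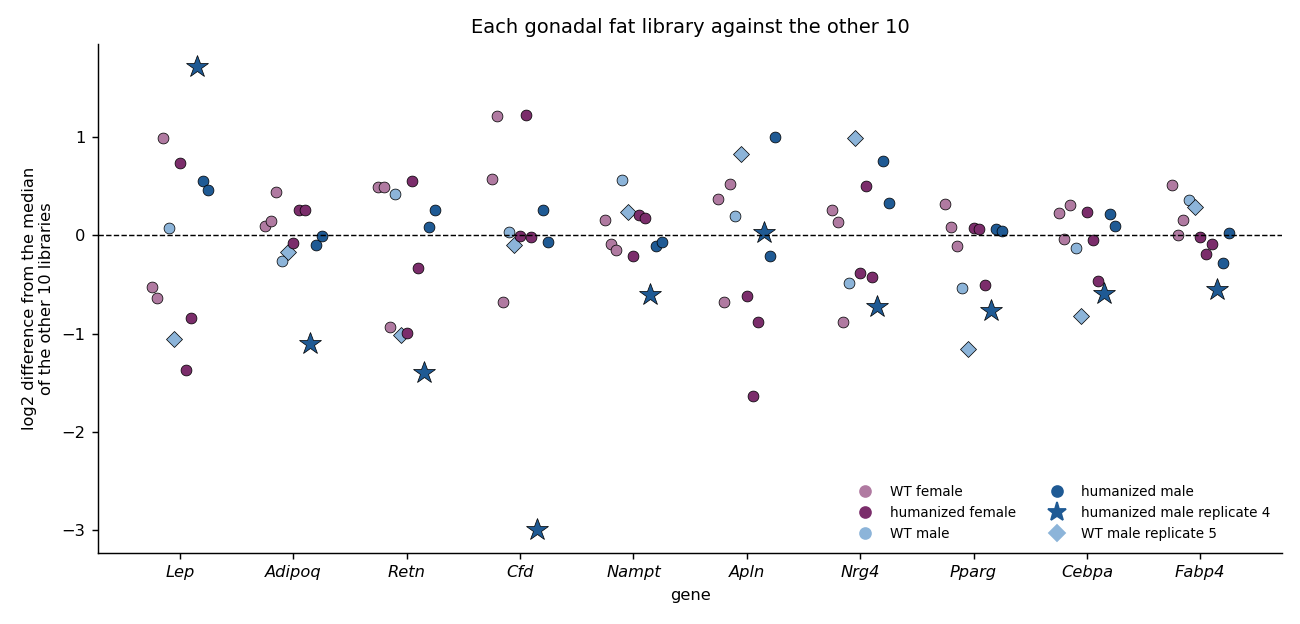
Difference of each fat library from the median of the other 10, on the log2 scale, for each gene; stars mark humanized male replicate 4 and diamonds WT male replicate 5. The star lies at 1.71 for Lep and at -2.99 for Cfd, and the diamond at -1.15 for Pparg.

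Retn (ENSMUSG00000012705), the resistin gene, took high and low values within each group. WT females read 94648, 94825 and 40648, humanized females 38839, 98794 and 61402, WT males 90361 and 38241, and humanized males 29322, 74497 and 80516. Genotype differences were -0.07 in males and -0.21 in females on the log2 scale, against a spread within groups of 0.75. Without humanized male replicate 4 the difference in males became 0.40, and without WT male replicate 5 it became -0.69.

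Cfd (ENSMUSG00000061780) encodes adipsin, the complement factor D that cleaves factor B in the alternative pathway. It had the widest range of the 10 genes in fat, 18.3-fold from 30999 in humanized male replicate 4 to 567933 in humanized female replicate 5. WT females read 363508, 565496 and 153679 and the other humanized females 244717 and 243846. WT males read 249144 and 229831 and the remaining humanized males 291466 and 234751, so these overlapped. The difference between genotypes in males was -0.90 on the log2 scale (SE 0.91, adjusted p = 0.825) and turned to 0.13 without humanized male replicate 4.

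Nampt (ENSMUSG00000020572) encodes the rate-limiting enzyme of NAD salvage, which is also secreted. WT males read 13024 and 10388 and humanized males 6141, 8658 and 8886, so every humanized male lay below both WT males. The mean was 11706 ± 1864 (SD, n = 2) in WT males and 7895 ± 1523 (SD, n = 3) in humanized males. The fitted ratio was 0.670 with a 95% confidence interval of 0.503 to 0.891 (limma, unadjusted p = 0.0109, adjusted p = 0.432). Without humanized male replicate 4 the log2 difference was -0.41 in place of -0.58. Females read 9839, 8793 and 8419 in WT and 8099, 10168 and 9951 in humanized animals, and those groups overlapped. The male genotype difference lay 0.64 below the female one on the log2 scale, and that contrast had an unadjusted p of 0.0285 and an adjusted p of 0.701 in limma.

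Apln (ENSMUSG00000037010), the apelin gene, was read at 849, 450 and 943 in WT females and at 468, 232 and 389 in humanized females. Only humanized female replicate 4, at 468, lay above the lowest WT female. The fitted ratio was 0.490 with a 95% confidence interval of 0.263 to 0.910 (limma, unadjusted p = 0.0283, adjusted p = 0.933). WT males were at 749 and 1165 and humanized males at 693, 621 and 1310. Males exceeded females by 0.82 on the log2 scale (SE 0.30, unadjusted p = 0.0219, adjusted p = 0.310 in limma).

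Nrg4 (ENSMUSG00000032311) encodes neuregulin 4, a ligand of ErbB receptors best known from brown fat. It was read at 3764, 3569 and 1992 in WT females, 2802, 4457 and 2720 in humanized females, 2619 and 6250 in WT males, and 2216, 5345 and 3957 in humanized males. All 4 groups overlapped. WT female replicate 4, the library with the highest brown and beige fat markers, was not high for Nrg4 (3764, against a median of 3569 over the 11 libraries).

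Pparg (ENSMUSG00000000440) and Cebpa (ENSMUSG00000034957) followed the same order in several libraries. Pparg was at 23410, 19803 and 18101 in WT females, 19741, 19552 and 13681 in humanized females, 13425 and 8752 in WT males, and 11441, 19631 and 19392 in humanized males. Cebpa was at 142457, 122413 and 151489 in WT females and at 144321, 121939 and 91498 in humanized females. In WT males Cebpa was at 115176 and 71569, and in humanized males at 83650, 142058 and 130231. WT male replicate 5, the library with the high erythroid and hepatocyte markers, was lowest for both genes. Pparg in males differed by 0.59 between genotypes on the log2 scale (SE 0.28, adjusted p = 0.619), 0.28 without WT male replicate 5 and 0.85 without humanized male replicate 4. Males lay below females for Pparg by a fitted ratio of 0.707 with a 95% confidence interval of 0.527 to 0.949 (limma, unadjusted p = 0.0255, adjusted p = 0.319). On the log2 scale that sex difference was -0.50, and it ranged from -0.65 to -0.34 over the alternatives, which include dropping single libraries. The lowest Pparg values, 8752 and 11441, came from male libraries named above as standing apart. The humanized males at 19631 and 19392 lay within the female range of 13681 to 23410, and the WT male at 13425 just below it. The joint part of the low libraries in the sex difference was not tested.

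Fabp4 (ENSMUSG00000062515), the fatty acid chaperone of fat cells and a target of Pparg, was the member whose genotype groups separated in both sexes. WT females read 1143450, 808556 and 895657 and humanized females 800525, 711188 and 761549. WT males read 1029430 and 979731 and humanized males 550088, 667612 and 814483. Each humanized library thus lay below every WT library of its sex, by narrow margins in females. Over both sexes the fitted ratio was 0.733 with a 95% confidence interval of 0.514 to 1.04 (limma, adjusted p = 0.734). In males the log2 difference was -0.59, and -0.45 without humanized male replicate 4. In females it was -0.31, and -0.17 without WT female replicate 4.

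Counted over the members, 1 of 10 (Lep) was higher and 2 of 10 (Nampt and Fabp4) lower without overlap in humanized males, and 23.3% of all genes had groups of males that did not overlap. In females it was 1 of 10 (Fabp4), and 11% of all genes. At an unadjusted p below 0.05, the members counted 1 of 10 in males (8.41% of all genes), 1 in females (5.25%), 0 with both sexes together (7.11%), 1 for genotype by sex (6.8%) and 2 between the sexes (12.5%). With 10 members, 1 gene is 10% of the list, and these shares lie near those of all genes. Markers of other cells moved in the same comparisons, and none of them was called. In humanized males 9 of 10 macrophage markers lay above 0 (median log2 difference 0.67) and 5 of 6 of skeletal muscle (2.52), while 6 of 6 erythroid (-2.24), 10 of 10 hepatocyte (-2.01), 9 of 10 mesothelial (-0.80) and 5 of 5 neutrophil markers (-0.79) lay below. In humanized females 10 of 10 mesothelial (1.29), 10 of 10 preadipocyte and fibroblast (0.34), 9 of 10 macrophage (0.40), 6 of 7 B cell (1.18) and 6 of 6 erythroid markers (0.51) lay above 0. There 8 of 8 T cell (-1.07) and 7 of 7 brown and beige fat markers (-1.32) lay below. Single libraries weigh on some of these shifts. Summed hepatocyte markers were at 4068 and, in replicate 5, 243789 in WT males, against 3376 to 12946 in humanized males. Summed brown and beige fat markers were at 1570 to 30459 in WT females, highest in replicate 4, against 1232 to 2724 in humanized females. The part of all these markers in the members' values was not tested. The median log2 difference of the 10 members was -0.17 in males and -0.22 in females, where the medians of all genes were 0.01 and -0.0013. The mean log2 level of the fat cell markers was lower in humanized animals as well. Differences taken relative to it were higher by 0.08 in males and 0.14 in females.

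**Figure D3:**
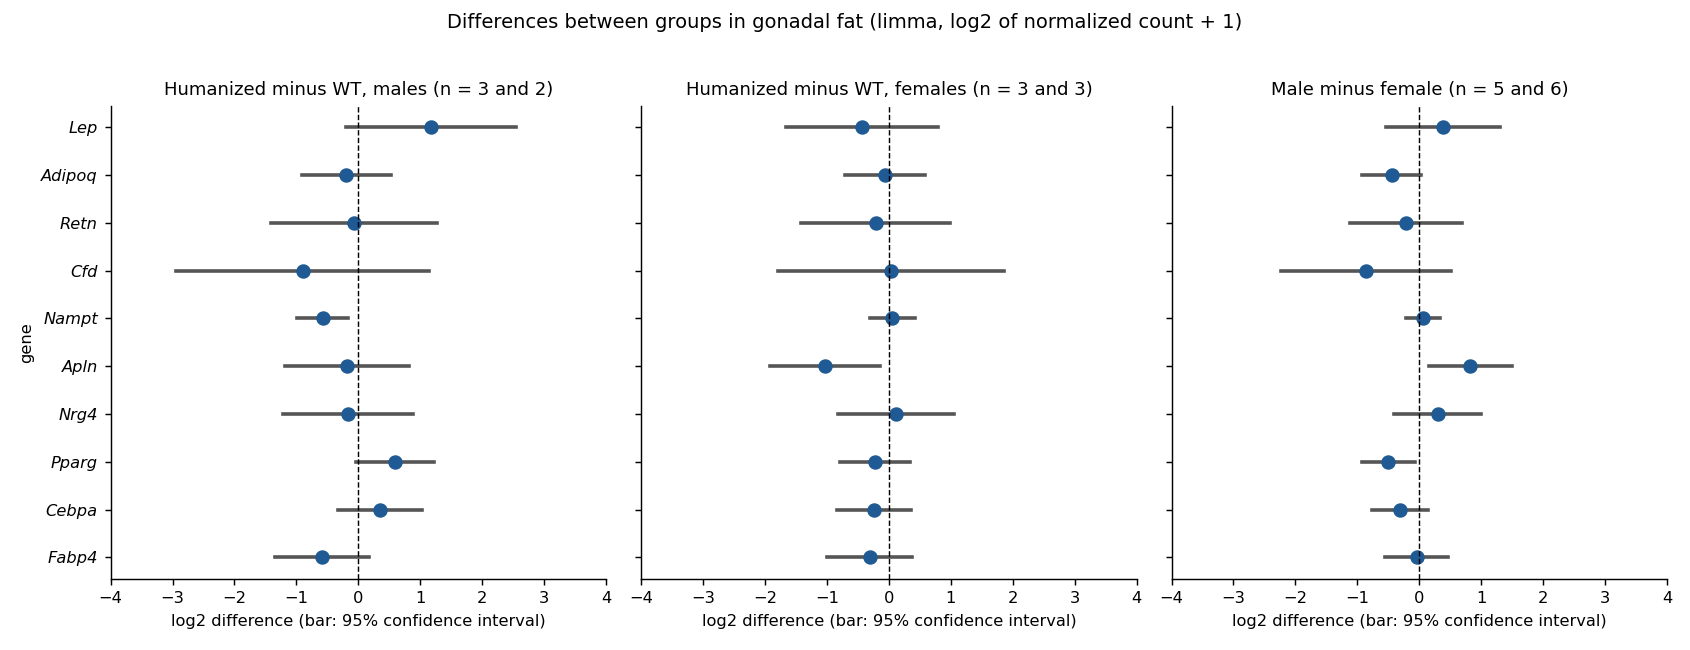
Log2 differences with 95% confidence intervals for the 10 genes in gonadal fat, by genotype in males, by genotype in females and by sex. The interval of Nampt in males ends at -0.17 and that of Apln in females at -0.14, while Lep in males spans -0.20 to 2.54.

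The members differed in how far animals of 1 group spread. The standard deviation within groups on the log2 scale was 1.15 for Cfd, 0.77 for Lep and 0.75 for Retn, larger than that of 98.6%, 96.3% and 96.2% of the 9241 genes with a mean of at least 1000. It was 0.21 for Nampt and for Fabp4 and 0.35 for Adipoq, Pparg and Cebpa, and the median of those genes was 0.19. Lep, Retn and Cfd were therefore among the most variable well-expressed genes over these fat libraries, and their confidence intervals are the widest. For each of them humanized male replicate 4 lay farthest from the median of the other libraries. It lay at 1.71 for Lep, -1.40 for Retn and -2.99 for Cfd on the log2 scale. The spread without that library is not given here.

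Across the 11 fat libraries 45 pairs of members were compared by correlation, with 100000 permutations a pair. Retn and Cfd varied together, with Pearson's r = 0.78 (permutation p = 0.00015, adjusted p = 0.00563) and Spearman's rho = 0.87 (permutation p = 0.00103, adjusted p = 0.0464). Their r was 0.72 without the 2 libraries farthest from the median of Retn and 0.71 without humanized male replicate 4. Taken as deviations from group means, r was 0.83. Pparg and Cebpa had r = 0.92 (permutation p = 0.00025, adjusted p = 0.00563) and rho = 0.71 (permutation p = 0.0178, adjusted p = 0.201), and r = 0.73 without the 2 farthest libraries.

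Lep and Cfd ran in opposite directions. Their r was -0.79 (permutation p = 0.00241, adjusted p = 0.0362) and their rho -0.55 (permutation p = 0.0864, adjusted p = 0.432). Without the 2 libraries farthest from the median of Lep, r was -0.46, so the relation rests on them. It was -0.63 without humanized male replicate 4 alone. Lep and Nampt had r = -0.70 (permutation p = 0.0149, adjusted p = 0.155) and rho = -0.81 (permutation p = 0.00366, adjusted p = 0.0824). No pair beyond Retn and Cfd, Pparg and Cebpa, and Lep and Cfd reached an adjusted p below 0.05 by either measure. Among the 45 pairs 29 values of r were positive and 16 negative, and 7 of the 9 pairs with Lep were negative. Among those 7, Lep and Pparg were at -0.0028. Without humanized male replicate 4, Lep had r = 0.34 with Pparg, -0.02 with Adipoq and -0.01 with Fabp4. With Retn, Cfd, Nampt and Nrg4 it stayed at -0.63 to -0.35.

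**Figure D4:**
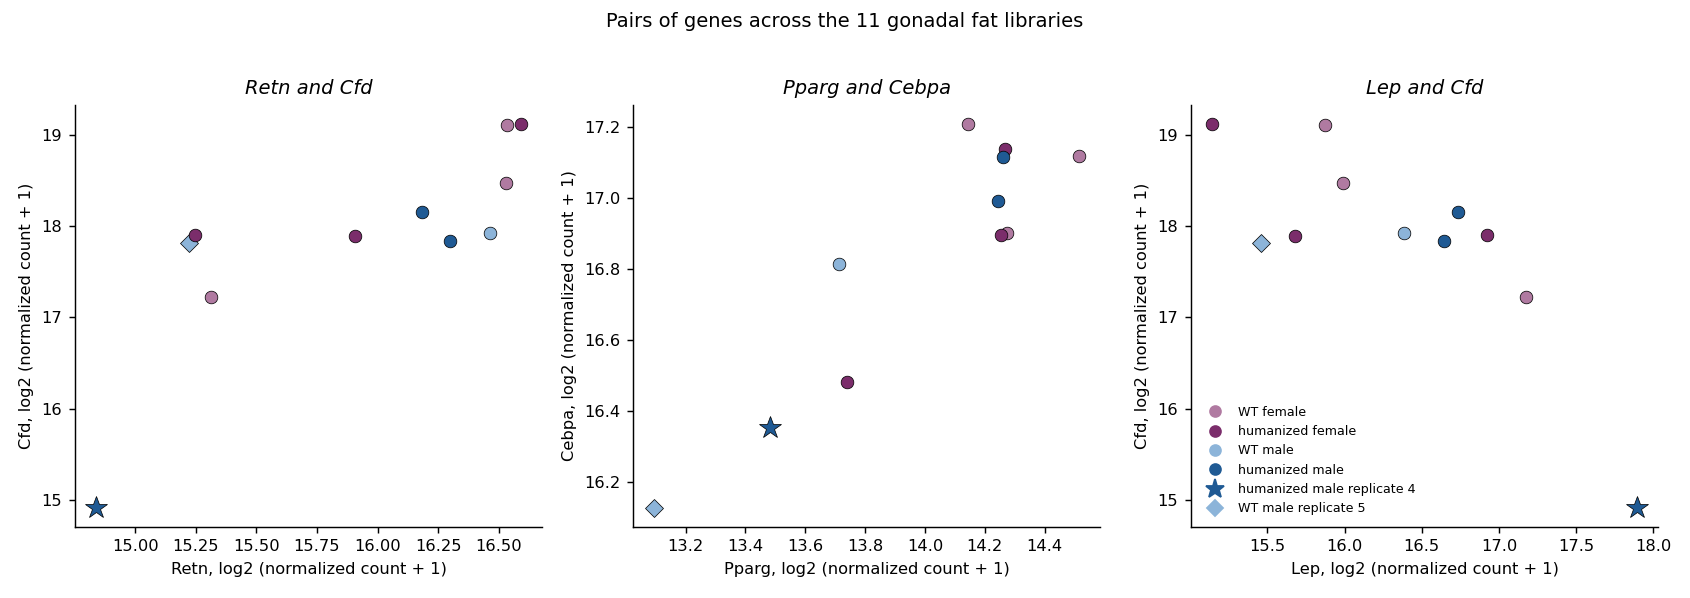
Log2 of the normalized count plus 1 for 3 pairs of genes, 1 point per fat library, with a star for humanized male replicate 4 and a diamond for WT male replicate 5. Retn and Cfd have r = 0.78, Pparg and Cebpa r = 0.92, and Lep and Cfd r = -0.79, where the star lies far from the other points.

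For the 5 members that varied most, the genes with the most similar profile over the 11 fat libraries were ranked by the root mean square of the log2 difference between centred profiles, among 13635 genes. The nearest of so many genes lie below the median by construction, and their similarity was not tested. The weight of single libraries in it was not tested either. Nearest to Lep were Tuba1a, which encodes an alpha tubulin (0.23), Tnfrsf21 (0.31) and H3c15 (0.35), where the median over all genes was 0.82. Nearest to Retn were Mpc1-ps (0.23), Enpep (0.24) and Pygl, the glycogen phosphorylase of liver (0.25), with a median of 0.67. Nearest to Cfd were Eci3 (0.41), Rad9b (0.46) and Il17re (0.46), with a median of 1.11. Nearest to Apln were Gramd1b (0.35), Ffar2, a receptor of short-chain fatty acids (0.38), and Pm20d1 (0.39), with a median of 0.75. Nearest to Nrg4 were Gstt2 (0.26), Adh1 (0.26) and Tshz2 (0.29), with a median of 0.57.

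Among genes around the members, none passed the test between genotypes in fat. Of 12 receptor genes for the members' proteins, 12 were tested and 0 called in any fat comparison. The one with the smallest p was Aplnr, the apelin receptor, at 734 and 872 in WT males and 3837, 2012 and 3425 in humanized males, with no overlap. Its log2 difference was 1.90 (SE 0.39) and its p was 0.000742 before and 0.221 after adjustment in limma. The leptin receptor gene Lepr lay 0.69 lower in males than in females on the log2 scale (limma, adjusted p = 0.324).

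Of 32 transcription factors and coregulators of fat cells, 32 were tested and 0 called. Ppargc1b, a coactivator of mitochondrial genes, had a genotype difference 1.80 larger in males than in females on the log2 scale (SE 0.37, adjusted p = 0.485). It read 1328, 776 and 920 in WT females and 450, 517 and 415 in humanized females, but 475 and 293 in WT males and 530, 675 and 628 in humanized males. The corepressor gene Ncor1 was 0.36 lower in humanized fat over both sexes (SE 0.09, adjusted p = 0.454).

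Of 29 tested targets of Pparg in fat cells 0 were called. In females 23 of 29 had a difference below 0, with a median log2 difference of -0.22 (all genes, -0.0013), and in males 15 of 29, with a median of -0.03 (all genes, 0.01). Several of these targets, such as Plin1, Plin4, Cidec and Lipe, are also among the fat cell markers. The mean log2 level of those markers was lower by 0.14 in humanized females and 0.08 in humanized males. The part of that shift in the targets' differences was not tested. Dgat2, an enzyme of triglyceride synthesis, read 120814 and 90762 in WT males and 287440, 261530 and 286336 in humanized males, and its genotype difference was 2.05 larger in males than in females on the log2 scale (SE 0.49, adjusted p = 0.597). Me1, the malic enzyme, lay 1.29 lower in males than in females (SE 0.25, adjusted p = 0.0757 in limma), and passed the test without WT male replicate 4 (adjusted p = 0.0320).

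Of 12 genes of NAD salvage 0 were called. Cd38, an enzyme that consumes NAD, lay 0.65 lower in humanized males (adjusted p = 0.453) and Nmnat2 0.80 lower in males than in females (adjusted p = 0.281). Of 8 tested genes of the alternative complement pathway 0 were called. Cd55, which restrains complement on cell surfaces, lay 0.53 lower in males than in females (SE 0.17, adjusted p = 0.253). Of 32 tested genes for other secreted factors 0 were called, with Lcn2 2.10 higher and Angptl4 0.67 higher in males than in females (adjusted p = 0.219 and 0.236). All these differences are on the log2 scale and from limma.

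Of 16 tested genes for signals that set leptin output, 1 was called in fat. Pgr, the progesterone receptor gene, was listed at 0 in all 5 male libraries and at 9.65 to 855 in the 6 female ones (adjusted p = 0.0176 in limma). The call was lost without any of 6 libraries in turn, namely WT female replicate 6, WT male replicates 4 and 5, humanized female replicate 5 and humanized male replicates 5 and 6. It was also lost with a pseudocount of 10 and with a minimum mean of 100. Adjusted p reached at most 0.116 over all alternatives. Esr1, the estrogen receptor gene of the same list, read 1914 to 4637 in male and 4465 to 10140 in female fat.

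In liver Lep, Adipoq, Retn, Cfd and Apln were nearly silent. Lep was listed at 0 in 6 of 12 liver libraries, Adipoq in 2, Retn in 8, Cfd in 1 and Apln in 5, and their highest liver values were 13.6, 7.04, 1.90, 31.8 and 5.83. The 2 tables were normalized separately, so levels are set side by side as shares of each table's total and not tested. Fabp4 made up a median of 9356 parts per 1000000 in fat and 2.79 in liver, Pparg 221 and 6.34, and Nrg4 41.5 and 9.17. Nampt, at 102 and 66.7, and Cebpa, at 1458 and 536, were closest between the tissues. Together the 10 genes took 1.29 to 2.33% of the total in fat libraries and 0.0507 to 0.0900% in liver libraries.

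Hepatocyte markers were high in all 12 liver libraries, with sums of 7107930 to 12285300 over 10 genes. In the liver WT male replicate 1 stood apart. It had the highest Fabp4 (775, against 161 to 354), the lowest Nampt (2226, against 3789 to 7376) and the lowest Pparg (152, against 311 to 1051). Its Lcn2 value, a gene of the acute phase response, was 82317, against 325 to 6973 elsewhere. No cause of these values was tested.

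No member passed the test between genotypes in liver. Of 5 members 0 were called in males (0.0329% of all genes), in females (0.0198%), with both sexes together (0.0329%) or for genotype by sex (0.00659%). No group separated from its WT counterpart without overlap, in males (10% of all genes) or in females (14.1%). The unadjusted p was below 0.05 for 1 of 5 members in males (7.13% of all genes), for 0 in females (5.66%), 0 with both sexes together (5.07%) and 0 for genotype by sex (8.18%).

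That member was Pparg, at 152, 385 and 418 in WT males and 605, 311 and 831 in humanized males. Its difference was 1.11 on the log2 scale (SE 0.40, adjusted p = 0.640), and 0.70 without WT male replicate 1. Within ribosomal depletion the difference was 1.50, but WT male replicate 1, at 152, was the only WT male library there. Within polyA libraries it was 1.05, and the humanized male at 831 was the only humanized male library there. Each value therefore rests on a single library in 1 of the groups and does not show that the preparations agree. Females read 484, 1051 and 755 in WT and 729, 462 and 665 in humanized animals. Without WT male replicate 1, Fabp4 in males turned from -0.42 to 0.30 and Nampt from 0.03 to -0.68.

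Between the sexes in liver 0 of 5 members were called, where 9.59% of all genes were, and 3 of 5 had an unadjusted p below 0.05, against 26.1% of all genes. Nrg4 lay lower in males by a fitted ratio of 0.568 with a 95% confidence interval of 0.378 to 0.853 (limma, adjusted p = 0.0797). It read 967, 666 and 1598 in WT females, 945, 1256 and 796 in humanized females, 550, 659 and 852 in WT males, and 757, 429 and 324 in humanized males. Without humanized male replicate 1 the adjusted p was 0.0350. It was -0.71 within ribosomal depletion and -1.21 within polyA libraries. Pparg was lower in males by 0.75 on the log2 scale (adjusted p = 0.112). The difference was -0.15 within polyA libraries (adjusted p = 0.810), -1.17 within ribosomal depletion (adjusted p = 0.121) and -1.02 without humanized female replicate 2 (adjusted p = 0.0169). Cebpa was higher in males by 0.28 (adjusted p = 0.134).

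**Figure D5:**
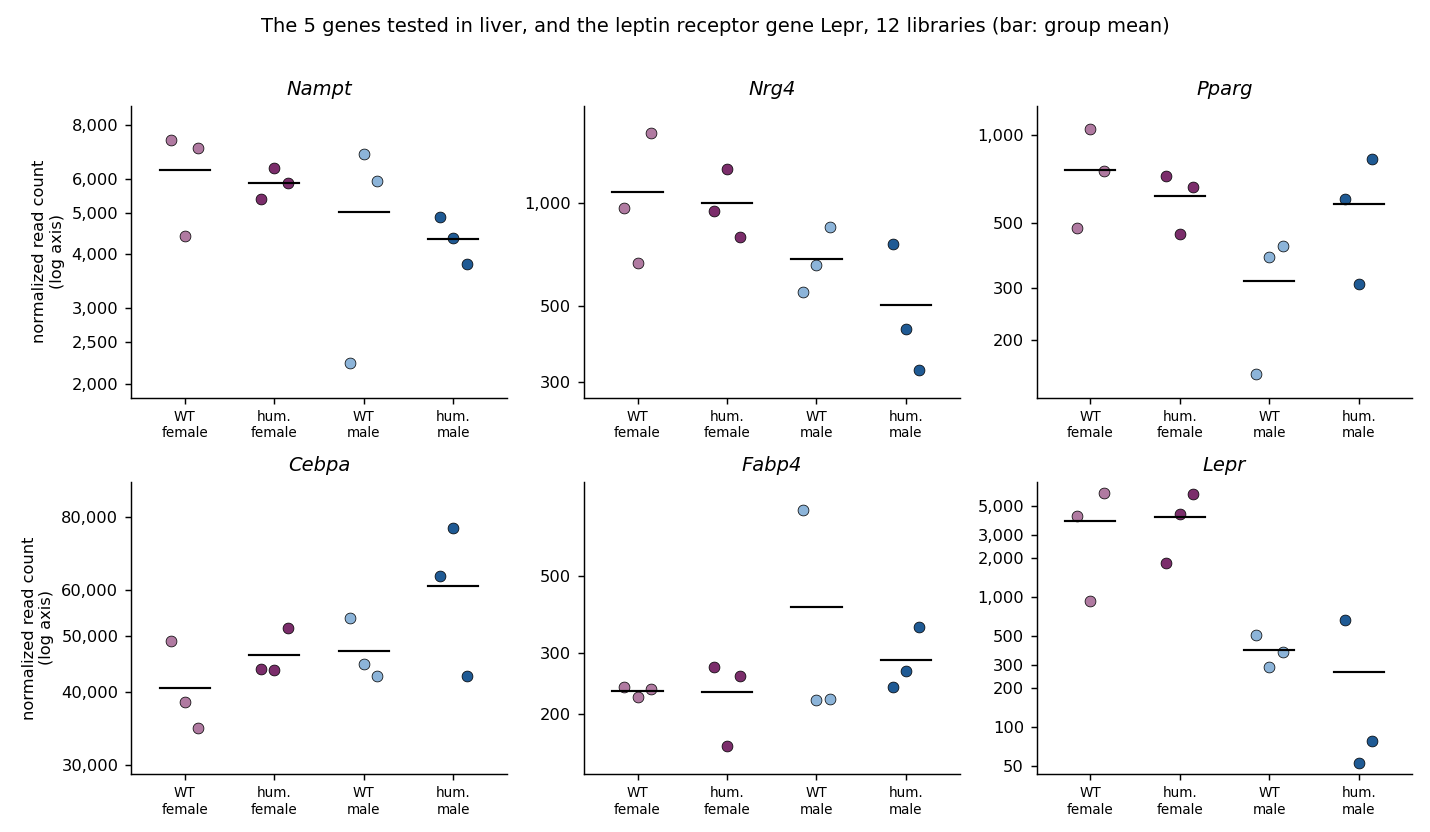
Normalized read counts on log axes for the 5 genes tested in liver and for Lepr in 12 liver libraries, 1 point per library, bars at group means. Lepr lies at 934 to 6308 in females and at 52.5 to 665 in males, and WT male replicate 1 is the high point for Fabp4 (775) and the low one for Nampt and Pparg.

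Over the 12 liver libraries 10 pairs of members were compared. Among them, Pparg and Cebpa had r = -0.50 (permutation p = 0.0992, adjusted p = 0.216) and rho = -0.65 (permutation p = 0.0262, adjusted p = 0.0874), r = -0.32 within the 6 ribosomal depletion libraries and r = -0.66 within the 6 polyA libraries. In fat the same pair had r = 0.92, and the difference between the tissues was not tested. Nampt and Nrg4 had r = 0.66 (permutation p = 0.0213, adjusted p = 0.107) and rho = 0.78 (permutation p = 0.00367, adjusted p = 0.0367), with r = 0.67 and 0.81 within the preparations. Nampt and Fabp4 had r = -0.86 (permutation p = 0.0024, adjusted p = 0.024) and rho = -0.69 (permutation p = 0.0153, adjusted p = 0.0763). That value fell to -0.31 without the 2 libraries farthest from the median of Nampt and so rests on them.

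Among the list genes called between the sexes in liver, the leptin receptor gene had the largest log2 difference. Lepr read 4167, 934 and 6308 in WT females and 1810, 4318 and 6126 in humanized females, but 504, 290 and 375 in WT males and 665, 52.5 and 77.6 in humanized males. Every female library lay above every male one. The log2 difference was -3.81 (SE 0.65, adjusted p = 0.00582 in limma), and -3.59 and -4.33 within ribosomal depletion and polyA libraries, where adjusted p was 0.135 and 0.104. It was the only 1 of 11 tested receptor genes called. In fat Lepr was at 293 to 901 in males and 490 to 1356 in females.

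The counts of called list genes that follow stand beside 9.59% of all liver genes called between the sexes. Of 15 tested genes for signals that set leptin output, 2 were called, both lower in male liver. Esr1 was at 1491 to 4458 in females and 987 to 1711 in males (log2 difference -1.09, SE 0.20, adjusted p = 0.00757 in limma). Of 30 tested transcription factors and coregulators 2 were called, a smaller share than that of all genes, both lower in males, Klf4 by -1.50 (adjusted p = 0.00354) and Gata2 by -0.70 (adjusted p = 0.0271).

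Of 29 tested genes for other secreted factors 6 were called between the sexes in liver, 4 higher and 2 lower in males. Serpina12, which encodes vaspin, was at 84.6 to 772 in females and 1171 to 15336 in males (log2 difference 3.73, SE 0.57, adjusted p = 0.00315). C1qtnf3 was higher by 2.54 (adjusted p = 0.0115), Nucb2, the precursor of nesfatin, by 1.66 (adjusted p = 0.0157) and Gpc4 by 0.33 (adjusted p = 0.0361). C1qtnf3 read only 0 to 6.77 in female and 9.81 to 25.5 in male libraries. It passed the filter, a mean of 10, narrowly and through its male values. C1qtnf1 differed by -0.76 (adjusted p = 0.0312) and Agt, the angiotensinogen gene, by -0.67 (adjusted p = 0.0166).

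Of 8 tested complement genes 2 were called, both lower in males. They were Cfp, the properdin gene, at -1.13 (adjusted p = 0.00497), and Cd55 at -0.77 (adjusted p = 0.0416). Of 12 NAD genes 1 was called, Cd38 at -0.67 (adjusted p = 0.0246). Of 26 tested Pparg targets 3 were called. Plin4, a coat protein of lipid droplets, differed by -2.22 (adjusted p = 0.0348), Slc2a4, the insulin-responsive glucose transporter, by -1.43 (adjusted p = 0.0332) and Gpd1 by 0.52 (adjusted p = 0.0291). All of these are log2 differences, male minus female, from limma.

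Of these genes, Serpina12, Nucb2, Agt, Lepr, Cfp, Klf4 and Esr1 were called without each liver library in turn. C1qtnf3 kept the call in the leave-out fits that tested it. Without some male libraries, each WT male among them, its mean fell below the filter and it gave no value. A further 8 (C1qtnf1, Gpc4, Cd55, Cd38, Gata2, Plin4, Slc2a4 and Gpd1) each lost the call without some library, 6 to 10 of the 12 in turn. Leaving out WT female replicate 2 or humanized male replicate 1 cost all 8 the call, and each of the other 10 libraries cost 2 to 7 of them. Within a single preparation, with 6 libraries, Serpina12 was called under polyA selection (3.84, adjusted p = 0.0124) and not under ribosomal depletion (3.02, adjusted p = 0.115). C1qtnf3 gave a value under ribosomal depletion alone (1.65), as its mean fell below the filter under polyA selection. Nucb2, Agt, Lepr, Cfp, Klf4 and Esr1 were called in neither preparation and kept their direction in both. Markers of other liver cells moved with sex as well. All 8 endothelial markers lay lower in males, 6 of them called, with a median log2 difference of -0.76. Of 10 macrophage markers 9 lay lower, 4 of them called, with a median of -0.67, and the other was called higher. Their part in the lower values of Lepr, Cfp, Cd55, Klf4 and Gata2 was not tested.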

How the data were processed

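The authors deposited 1 gene-level RNA table per tissue, with normalized counts from DESeq2 (unit signal, not whole reads) per library. STAR, Salmon, DESeq2, limma and mm9 are named per the submitters' processing notes. Each table was normalized separately, and read depth is not given in the sources used here: the total normalized signal was 83100312 to 90417259 per fat library and 77307210 to 95381805 per liver library. Whole reads could not be recovered, so no count model was used.

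Values were analysed as log2 (signal + 1), after removing genes with a mean signal below 10, using the moderated test of limma (version 3.58.1, run under R 4.3.3) and a variance prior that follows the mean. A single model covered the 4 groups of a tissue, with preparation as a covariate in liver, and p-values were adjusted over all genes of the tissue by the Benjamini-Hochberg method. The model was tested on simulated data. Correlations used Python 3.11.15 and scipy 1.17.1, and the small RNA tables were not used. Labels do not tie replicate numbers to animals or batches. Deviations of same-numbered fat libraries correlated at -0.10 to 0.40 (median 0.15), with 9 of 15 pairs over 0.1. Differently numbered fat libraries were at -0.36 to 0.30 (median -0.09), with 4 of 30, so same-numbered fat libraries were the more alike on these values. Deviations cancel within each group, so the values of same-numbered and differently numbered pairs are tied to each other. The contrast between them was not tested. In liver same-numbered pairs were at -0.46 to 0.24 (median -0.08), with 3 of 18 over 0.1. Differently numbered ones were at -0.28 to 0.44 (median 0.02), with 13 of 36. All 3 female pairs of WT and humanized fat were over 0.1 (0.17 to 0.19), as were all 3 pairs of humanized females and males (0.15 to 0.40), while the male pairs were at 0.0068 and 0.11. The main fit did not use the numbers to pair samples, although the fat values leave shared structure by number possible. The fit with the replicate block called 0 members.

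The 10 members and the gene lists were chosen with earlier results of these data known. By rule, all members are named, and for each list in each tissue up to 6 called genes with the largest difference or, where none was called, the 2 with the smallest unadjusted p. Some genes this rule names are not reported here. Esr1 in fat and Lcn2 in liver were added after their values were seen. Alternatives were other pseudocounts and filters, rescalings, the replicate block, array weights, no trend, preparation subsets and leaving out each library.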

Additional observations from a re-analysis of the deposited data

How the results depend on the processing

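Of 1680 values under the alternatives of members that passed the filter, 3 passed the test, all between the sexes in liver, and 124 changed sign without passing in either fit. The count of members called was 0 throughout in fat, also with the replicate block, and in liver it was 0 apart from the comparison of the sexes. There it was 1 with no filter on low values (Cfd, which is not among those 1680 values, 2.09 higher in males on the log2 scale, adjusted p = 0.0342), 1 within ribosomal depletion libraries (Nampt, -1.01, adjusted p = 0.0352), and 0 to 1 with each library left out in turn. It was 1 without humanized male replicate 1 (Nrg4, adjusted p = 0.0350) and without humanized female replicate 2 (Pparg, adjusted p = 0.0169). The replicate block left 0 members called in liver and changed no call of a member in fat, where Apln in females had an adjusted p of 0.854 with it; among the list genes C1qtnf1, Gpc4, Cd55 and Gpd1 lost the call in liver. Values relative to each library's mean log2 level of fat cell markers were shifted by 0.08 for all genes in males and 0.14 in females, which left Fabp4 at -0.34 over both sexes and Apln at -0.89 in females. The causes of these changes were not tested.

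The number of all genes called moved more. Between the sexes it was 73 in fat, with 39 to 97 under the alternatives and 56 with the replicate block, and 1456 in liver, with 159 (polyA libraries alone) to 1974 (array weights) and 1197 with the block. Between genotypes it ranged from 2 to 10 in fat males, 2 to 8 in fat females, 2 to 7 in fat of both sexes, 2 to 46 in liver males, 2 to 7 in liver females and 2 to 25 in liver of both sexes, and for genotype by sex from 0 to 6 in fat and 0 to 11 in liver. The difference in fat males kept its sign for Lep, Nampt, Pparg, Cebpa and Fabp4 in all alternatives, and changed it for Adipoq, Retn, Cfd, Apln and Nrg4 in at least 1. A kept sign can go with a value near 0: Cebpa went from 0.35 to 0.0062 on the log2 scale without WT male replicate 5. With 2 or 3 libraries a group, the confidence intervals given beside the values set what could be resolved.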
